A study of Mus musculus with 6 samples.

Results

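Glycolysis splits glucose to pyruvate in the cytosol. Its genes were described here through 10 names: the transcription factor gene Hif1a, the glucose transporter gene Slc2a1, the regulatory enzyme gene Pfkfb3 and the glycolytic enzyme genes Hk1, Hk2, Aldoa, Pgk1, Eno1, Pkm and Ldha. They were taken by gene name from a table of 54532 rows, where they gave 11 rows, since Aldoa stood on 2. Colon RNA came from C57BL/6 mice at postnatal day 56. The 3 libraries labelled WT came from wild type mice and the 3 labelled IL10-KO from IL10-/- mice, in which the gene of the anti-inflammatory cytokine interleukin 10 is disrupted and which are known to develop colitis. The whole colon was frozen for RNA, and no treatment is named in the labels. The targeted allele is not given in the sources used here. Nor is it stated whether each library was made from its own mouse, so a p-value here covers library-to-library spread, which may be technical. The comparison asks how the IL10-KO colon differs from the WT colon.

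Cells take up glucose through facilitative transporters, of which Slc2a1 (GLUT1) is the most widespread. Hexokinases trap it as glucose 6-phosphate, Pfkfb3 makes the allosteric activator of phosphofructokinase, and aldolase, phosphoglycerate kinase, enolase and pyruvate kinase carry the carbon on to pyruvate, which lactate dehydrogenase A can reduce to lactate. HIF-1, the dimer of Hif1a and Arnt proteins, switches on many of these genes when oxygen is low, and its alpha subunit is controlled largely through protein breakdown, which RNA levels do not show. The surface of the healthy colon is normally low in oxygen, and activated myeloid and lymphoid cells are known for high glycolytic rates.

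HIF-1 binds DNA at a short core, written here as ACGTG or GCGTG and searched on both strands. RefSeq promoter windows (GRCm38.p6, 250 bases before to 50 after a gene start) matched all 10 names, and for each gene the window nearest the 5′ end of its deposited span was used. At least 1 core was present in 7 of the 10 windows (70.0%), against 43.8% of all 32851 windows of that length. ACGTG was present in 6 (60.0%), against 19.6% of all windows. The members' windows were also richer in CpG, with a median of 24.5 CpG against 7, and both cores hold a CpG; the part of CpG content in the match counts was not tested. The windows of Hk1, Aldoa and Pkm nearest the 5′ end had no match, and each of these genes had a match in another of its RefSeq windows. Counting every window of a gene, 10 of 10 members and 46.7% of 27025 genes had a match, but the members had 18 windows, 1.80 per gene, against 1.22 over all genes. The windows of the 4 members whose libraries separated by label are shown first. Ldha, the member with the most matches and with overlapping groups, follows. Each runs 5′ to 3′ on the gene's strand with the cores in capitals.
Pfkfb3, chr2:11553880-11554179, minus strand: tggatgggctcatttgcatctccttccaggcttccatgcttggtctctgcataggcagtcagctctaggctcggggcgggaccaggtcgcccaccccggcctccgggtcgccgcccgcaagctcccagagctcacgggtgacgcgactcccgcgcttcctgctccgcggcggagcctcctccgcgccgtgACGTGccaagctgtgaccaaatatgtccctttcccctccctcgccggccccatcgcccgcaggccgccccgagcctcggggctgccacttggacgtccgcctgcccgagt
Hk2, chr6:82774405-82774704, minus strand: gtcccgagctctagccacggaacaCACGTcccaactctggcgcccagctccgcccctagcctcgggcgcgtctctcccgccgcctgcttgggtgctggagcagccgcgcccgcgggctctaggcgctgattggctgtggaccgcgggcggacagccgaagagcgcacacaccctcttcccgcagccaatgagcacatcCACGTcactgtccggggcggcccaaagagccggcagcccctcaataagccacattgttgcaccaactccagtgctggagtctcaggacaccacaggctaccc
Pgk1, chrX:106186850-106187149, plus strand: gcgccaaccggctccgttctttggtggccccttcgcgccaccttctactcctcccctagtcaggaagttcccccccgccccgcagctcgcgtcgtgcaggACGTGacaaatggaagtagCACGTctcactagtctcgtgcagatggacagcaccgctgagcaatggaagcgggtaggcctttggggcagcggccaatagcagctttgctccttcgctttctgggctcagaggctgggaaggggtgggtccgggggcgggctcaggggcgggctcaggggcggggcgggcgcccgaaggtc
Hif1a, chr12:73907617-73907916, plus strand: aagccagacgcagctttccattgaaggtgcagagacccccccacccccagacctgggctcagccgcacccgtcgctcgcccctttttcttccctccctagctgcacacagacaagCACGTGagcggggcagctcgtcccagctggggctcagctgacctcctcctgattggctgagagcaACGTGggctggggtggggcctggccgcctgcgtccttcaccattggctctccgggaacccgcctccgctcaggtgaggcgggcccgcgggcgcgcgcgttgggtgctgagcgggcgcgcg
Ldha, chr7:46845554-46845853, plus strand: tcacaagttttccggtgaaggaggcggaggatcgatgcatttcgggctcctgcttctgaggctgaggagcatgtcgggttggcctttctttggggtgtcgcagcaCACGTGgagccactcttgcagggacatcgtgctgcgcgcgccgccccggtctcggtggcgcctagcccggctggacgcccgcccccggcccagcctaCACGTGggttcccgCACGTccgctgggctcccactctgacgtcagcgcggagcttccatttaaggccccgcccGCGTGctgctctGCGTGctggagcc
Pfkfb3 had 1 core, 60 bases before the RefSeq start (position -60). Hk2 had 2, at -226 and -52, and Pgk1 had 2, at -150 and -131. In Hif1a 2 of the 3 matches, at -135 and -134, were the opposite strands of 1 CACGTG, which is also the E-box read by other factors. Ldha had 7 matches, 4 of them from 2 copies of CACGTG. The Hif1a and Ldha windows lay 6492 and 4329 bases from the 5′ end of the deposited gene span. The bases just after the RefSeq start were found in a sense transcript of the gene for Pfkfb3, Hk2 and Pgk1. They were not found in one for Hif1a or Ldha. A match gives the letters only, and no binding was measured.

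The table held FPKM, fragments per kilobase of gene and scaled per library by the authors, so levels can be compared between genes. Reads recovered from the FPKM values came to between 13107941 and 15797928 per library. The FPKM scale implied a size of 0.836 (WT library 2) to 1.23 (WT library 1) times that sum, so the values were not scaled to these totals. Pairs of WT libraries had a Pearson's r across genes of 0.795 to 0.864, and pairs of IL10-KO libraries one of 0.935 to 0.961. WT library 1 correlated better with each IL10-KO library (0.872 to 0.910) than with either other WT library, and WT library 2 best with IL10-KO library 1 (0.887). Genes are not independent replicates. Il10 RNA was not lost from the libraries labelled IL10-KO, which held 10.6 to 14.5 FPKM of it where WT held 0.173 to 0.757. The value covers the whole gene and does not check the allele, and every direction below rests on the labels. Log2 fold changes are IL10-KO minus WT on log2(FPKM + 1), which understates the change of low genes. They were tested with limma over the 12668 genes with a mean of at least 1 FPKM, with Benjamini-Hochberg adjustment over all of them.

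All 10 tested rows had a log2 fold change above 0, as had 54.1% of all genes tested, and none passed the adjusted threshold of 0.05. The second Aldoa row, below the level filter, also averaged higher in IL10-KO. Pfkfb3 had the largest log2 fold change among the 10 tested rows, 2.17, followed by Hk2 at 1.89, Pgk1 at 1.63, Slc2a1 at 1.26, Hif1a at 1.20 and Eno1 at 1.12. These 6 reached at least 1, against 5.88% of all genes tested. The median over the 11 rows was 1.12, against 0.0043 over the 27418 rows with a read, many of them at low levels. Over the 10 tested rows it was 1.16, against 0.0388 over all genes tested. In limma 0 of the 10 tested rows were called, against 0.182% of all genes tested. At an unadjusted p under 0.05, 5 were higher (Pfkfb3, Hk2, Pgk1, Hif1a and Eno1), against 6.14% of all genes tested in that direction. With voom on the recovered reads 0 were called and 4 had such a p. For 4 members, Pfkfb3, Hk2, Pgk1 and Hif1a, every IL10-KO library lay above every WT library, against 8.84% of all genes tested. For 0 members was the order the other way round, against 7.89%. Pfkfb3 passed the level filter only through the IL10-KO libraries. Whole-colon RNA cannot tell more cells of a glycolytic type from more RNA per cell.

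**Figure D1:**
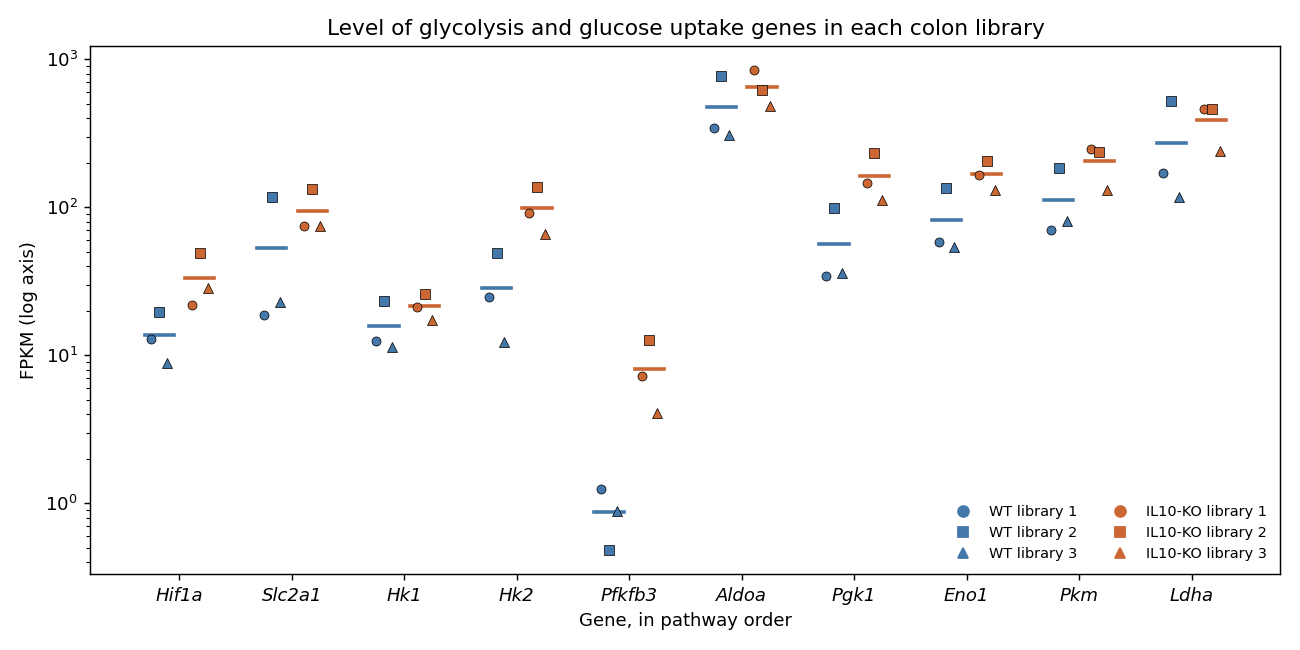
FPKM (log axis) of the 10 tested rows in each library, in pathway order; symbols stand for library numbers and bars for group means (n = 3). The IL10-KO symbols of Pfkfb3, Hk2, Pgk1 and Hif1a all lie above the WT ones, and WT library 2 is the highest WT symbol for 9 of the 10.

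Levels within WT were mostly highest in 1 library. WT library 2 was the highest WT library for 9 of the 10 tested rows, and Pfkfb3 was the exception, with its lowest WT level there. IL10-KO library 2 was the highest of its group for 8 of them. Of the recovered reads, mitochondrial genes took 20.3, 11.7 and 43.4% across WT and 21.96, 8.61 and 15.5% across IL10-KO. Both libraries numbered 2, where most members were highest, thus had the lowest share of their group, and WT library 3, the lowest WT library for 6 members, had the highest of all. With libraries rescaled without mitochondrial genes the members' median was 0.97, against -0.13 over all genes tested. Every IL10-KO library lay above both WT library 1 and WT library 3 for all 10. Without WT library 2, singled out among the left-out libraries after its values were seen, 10 of 10 were thus separate by label, and so were 26.4% of all genes tested. That fit gave an unadjusted p under 0.05 for all 10, against 14.8% of all genes higher, and still called 0 of them after adjustment. Leaving out any other single library left 2 to 4 of the 10 with an unadjusted p under 0.05.

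Hif1a encodes the oxygen-regulated subunit of HIF-1 (ENSMUSG00000021109; GRCm38 chromosome 12, 73901375 to 73947530, plus strand). Libraries 1 to 3 of WT held 12.9, 19.6 and 8.79 FPKM, and those of IL10-KO held 21.8, 49.4 and 28.5 FPKM, the order used for every gene below. The groups did not overlap, although IL10-KO library 1 stood only just above WT library 2. The log2 fold change was 1.20 (SE 0.41, adjusted p = 0.432 in limma). The exact two-sided permutation p was 0.1, its minimum with 3 libraries a group, for Hif1a and for the other 3 members whose groups did not overlap. An antisense gene, Gm15283, spans the whole of Hif1a and reached at most 1.43 FPKM. The strand setting is not known, so the pair's reads cannot be told apart.

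Slc2a1 encodes GLUT1, which carries glucose across the plasma membrane (ENSMUSG00000028645; chromosome 4, 119108711 to 119137983, plus strand). It was at 18.8, 117 and 22.8 FPKM in WT and at 74.3, 133 and 74.8 FPKM in IL10-KO. WT library 2 lay above 2 of the 3 IL10-KO libraries and stood 5.62-fold above the mean of the other WT libraries, the largest such gap of any tested member. Its log2 fold change was 1.26 (SE 0.71, 95% interval -0.41 to 2.94, adjusted p = 0.594 in limma). It was 2.08 without WT library 2 and 0.79 without WT library 1.

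Hexokinases phosphorylate incoming glucose, and 2 of them were members. Hk2, the inducible form (ENSMUSG00000000628; chromosome 6, 82725025 to 82774454, minus strand), was at 24.7, 48.9 and 12.2 FPKM in WT and at 91.6, 137 and 66.3 FPKM in IL10-KO. Hk1, the widely expressed form (ENSMUSG00000037012; chromosome 10, 62268855 to 62379908, minus strand), was at 12.6, 23.3 and 11.3 FPKM in WT and at 21.2, 26.0 and 17.2 FPKM in IL10-KO. Hk2 was separate by label, and Hk1 overlapped. Hk2 had a log2 difference of 1.89 (SE 0.54, adjusted p = 0.345 in limma). Hk1 had one of 0.48 (SE 0.34, 95% interval -0.33 to 1.29, adjusted p = 0.684).

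A ratio taken within a library does not depend on how libraries were scaled to each other. The Hk2 to Hk1 ratio of FPKM was 1.97, 2.10 and 1.08 across the WT libraries and 4.32, 5.27 and 3.85 across the IL10-KO ones. Its mean was 1.72 ± 0.555 in WT and 4.48 ± 0.724 in IL10-KO (SD, n = 3), and the groups did not overlap. Again the exact two-sided permutation p was 0.1, its minimum. This pair and the other 6 within-library ratios computed were chosen after the levels were seen. WT library 2, which was high for both hexokinases, was close to WT library 1 in the Hk2 to Hk1 ratio. Among the other 6, the Pfkp to Pfkl, Slc2a1 to Slc5a1 and Ldha to Ldhb ratios overlapped between the groups (exact two-sided permutation p = 0.2, 0.8 and 0.2). The rest were separate by label, and in each of them, as in Hk2 to Hk1, the first gene was itself separate by label. No share over other gene pairs was computed.

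**Figure D2:**
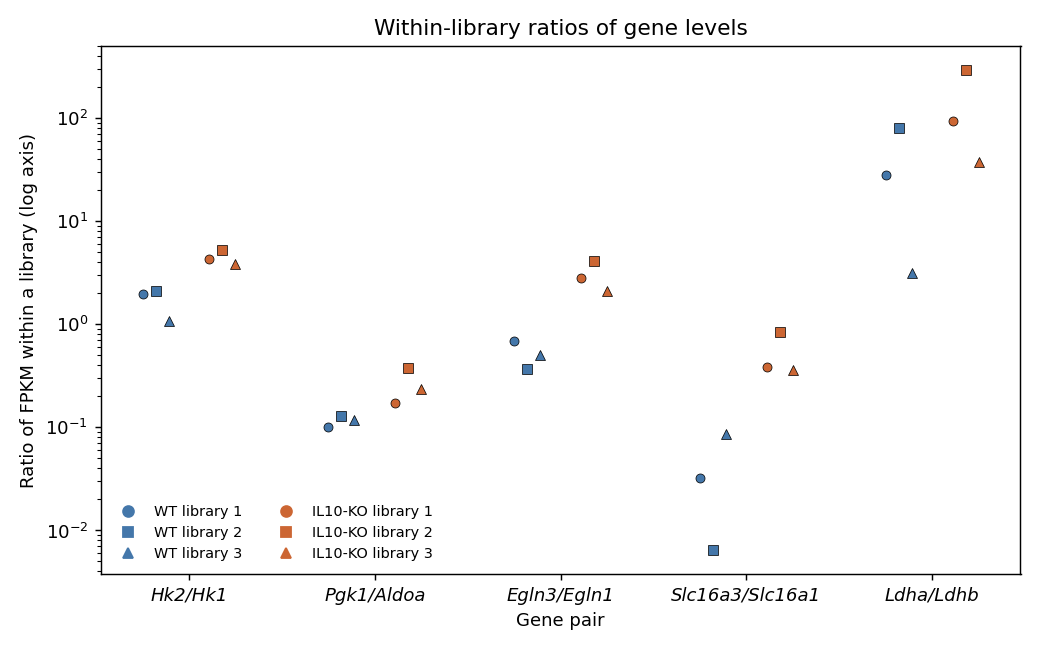
Ratio of FPKM values within each library (log axis) for 5 gene pairs; symbols stand for library numbers. The Hk2/Hk1 ratio runs from 1.08 to 2.10 in WT and from 3.85 to 5.27 in IL10-KO, while the Ldha/Ldhb ratio overlaps between the groups.

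Pfkfb3 makes fructose 2,6-bisphosphate, which speeds the committed step of glycolysis (ENSMUSG00000026773; chromosome 2, 11471433 to 11554077, minus strand). Pfkfb3 held 1.25, 0.481 and 0.890 FPKM in WT and 7.22, 12.7 and 4.10 FPKM in IL10-KO. It was the lowest tested member in every library, and its lowest IL10-KO library was still above its highest WT library. The WT libraries held 287 Pfkfb3 reads in all, and the IL10-KO libraries 2708. Mean FPKM was 9.19-fold higher in IL10-KO. The log2 fold change was 2.17 (SE 0.39, adjusted p = 0.115 in limma), and 3.14 with a pseudocount of 0.01. It ranked 95th of the 12668 genes by p.

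Aldoa encodes aldolase A, which cleaves fructose 1,6-bisphosphate (ENSMUSG00000030695; chromosome 7, 126795234 to 126800751, minus strand). It was the member with the highest level, at 345, 769 and 307 FPKM in WT and at 847, 623 and 483 FPKM in IL10-KO. WT library 2 exceeded IL10-KO libraries 2 and 3. On the log2 scale the difference was 0.55 (SE 0.48, 95% interval -0.59 to 1.68, adjusted p = 0.748 in limma), and it was 0.19 with quantile normalization and 0.96 without WT library 2. The second Aldoa row (ENSMUSG00000114515; chromosome 7, 126800790 to 126809108, minus strand) lies just upstream and held 9 reads over the WT libraries and 12 over the IL10-KO ones. It did not pass the level filter and was not tested.

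Pgk1, on the X chromosome (ENSMUSG00000062070; 106187100 to 106203699, plus strand), encodes the phosphoglycerate kinase of the first ATP-producing step. It was at 34.5, 98.9 and 36.0 FPKM in WT and at 145, 232 and 113 FPKM in IL10-KO, without overlap. On the log2 scale the Pgk1 difference was 1.63 (SE 0.51, adjusted p = 0.385 in limma). Relative to Aldoa in the same library, Pgk1 was at 0.0999, 0.129 and 0.117 in WT and at 0.172, 0.373 and 0.233 in IL10-KO. This ratio was also separate by label, with WT library 2 close to the other WT libraries. Of the 50-base stretches in Pgk1 transcripts of GENCODE M21, 53.9% also occurred in transcripts of other genes, mostly the related sequence Pgk1-rs7, listed at 0.0617 to 1.93 FPKM. How reads shared between copies were counted is not given in the sources used here, so the Pgk1 level is uncertain.

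Eno1 encodes enolase 1, which makes phosphoenolpyruvate (ENSMUSG00000063524; chromosome 4, 150236721 to 150248879, plus strand). It was at 57.8, 135 and 53.8 FPKM in WT and at 164, 207 and 131 FPKM in IL10-KO. IL10-KO library 3 lay just below WT library 2, and the other IL10-KO libraries lay above all WT ones. The Eno1 difference was 1.12 on the log2 scale (SE 0.44, adjusted p = 0.469 in limma). Eno1 shared 26.0% of its 50-base stretches with other genes, mostly Eno1b, which was at 3.21 to 12.2 FPKM.

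Pkm encodes the M forms of pyruvate kinase (ENSMUSG00000032294; chromosome 9, 59656368 to 59679375, plus strand). It was at 70.6, 183 and 80.5 FPKM in WT and at 247, 236 and 130 FPKM in IL10-KO, with 2 of the 3 IL10-KO libraries above WT library 2. The log2 fold change was 0.95 (SE 0.48, 95% interval -0.20 to 2.10, adjusted p = 0.559 in limma). The table gives 1 value per gene, so the splice forms PKM1 and PKM2 were not separated. Pkm shared 25.8% of its 50-base stretches with other genes. Another listed gene, AC160637.1, overlaps 3887 bases of Pkm on the same strand and reached at most 6.59 FPKM (403 reads).

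Ldha encodes lactate dehydrogenase A (ENSMUSG00000063229; chromosome 7, 46841475 to 46855627, plus strand). It was at 170, 522 and 117 FPKM in WT and at 462, 462 and 240 FPKM in IL10-KO. WT library 2 was the highest of all 6 libraries, which held for no other tested member. The Ldha difference was 0.76 on the log2 scale (SE 0.62, 95% interval -0.72 to 2.25, adjusted p = 0.729 in limma). It was 1.39 without WT library 2 and 0.32 without WT library 3. Ldhb, the heart-type subunit, gave -1.39 (adjusted p = 0.570), with 37.2 FPKM in WT library 3 and 1.58 to 6.46 FPKM in the rest. The Ldha to Ldhb ratio was 27.9, 80.8 and 3.14 in WT and 93.4, 293 and 37.7 in IL10-KO, with overlap (exact two-sided permutation p = 0.2).

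**Figure D3:**
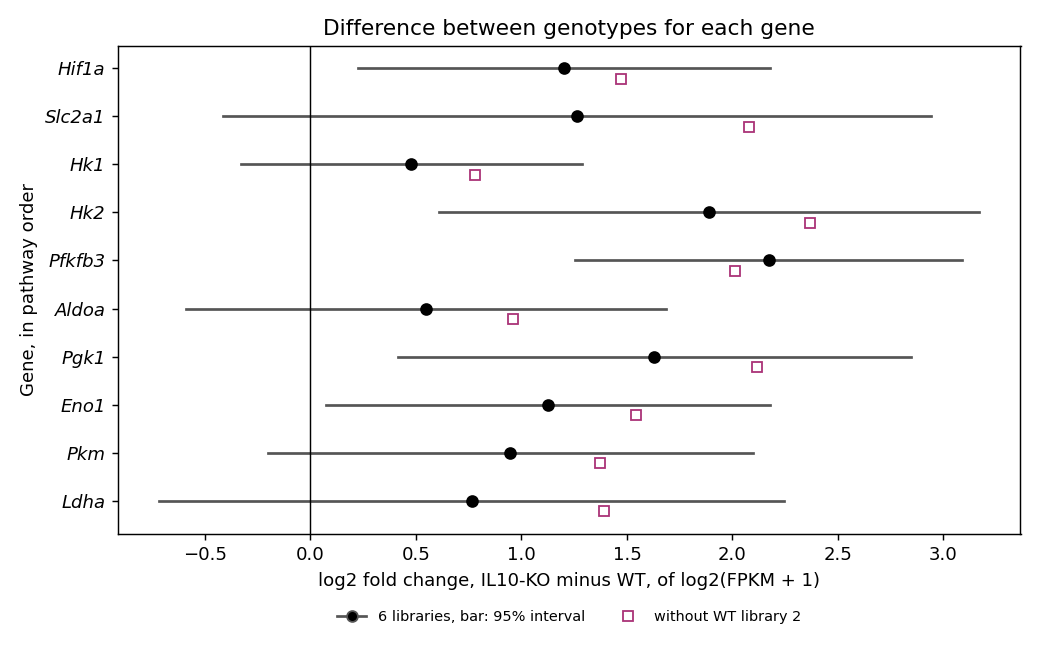
Log2 fold change (IL10-KO minus WT, log2(FPKM + 1)) of the 10 tested rows from limma, with 95% intervals as bars, and the value without WT library 2 as open squares. The intervals of Hif1a, Hk2, Pfkfb3, Pgk1 and Eno1 lie above 0 before adjustment, and leaving out WT library 2 gives a larger value for every gene but Pfkfb3.

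By mean level over the 6 libraries, Aldoa (562 FPKM) was followed by Ldha (329), Pkm (158), Eno1 (125), Pgk1 (110), Slc2a1 (73.5), Hk2 (63.5), Hif1a (23.5), Hk1 (18.6) and Pfkfb3 (4.44). Neighbours such as Eno1 and Pgk1, Slc2a1 and Hk2, and Hif1a and Hk1 overlapped across libraries. The 3 members with the highest levels, Aldoa, Ldha and Pkm, had log2 fold changes under 1, and so did Hk1. Pfkfb3, the lowest, had the largest. In the exact two-sided permutation test p was 0.2 for Eno1 and Pkm, 0.3 for Slc2a1, Hk1 and Aldoa, and 0.4 for Ldha.

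The remaining enzymes of the pathway showed no common direction. Of 23 listed genes 20 were tested and limma called 0. At an unadjusted p under 0.05, 2 were higher, against 6.14% of all genes tested, and 0 lower, against 4.03%. Pfkp, the platelet form of phosphofructokinase, was at 6.58 ± 0.416 FPKM in WT and 20.2 ± 7.04 in IL10-KO (SD, n = 3). Its log2 difference was 1.43 (SE 0.31, adjusted p = 0.201 in limma), and that of Hk3, a hexokinase of myeloid cells, was 1.05 (SE 0.37, adjusted p = 0.441). Hk3, with a WT mean of 0.860 FPKM, passed the level filter only through the IL10-KO libraries. Bpgm, which makes 2,3-bisphosphoglycerate, and Aldoc, another aldolase, had log2 fold changes of 0.82 and 0.70 (adjusted p = 0.495 and 0.512). Those of the enolases Eno2 and Eno3, named after their values were seen, were -1.04 and -1.57 (adjusted p = 0.515 and 0.535). For Eno2 every IL10-KO library lay below every WT library, against 7.89% of all genes tested. Eno2, with an IL10-KO mean of 0.684 FPKM, passed the level filter only through the WT libraries. The median over the 23 was 0.16. Among tested rows it was 0.10 as deposited and -0.08 with libraries rescaled without mitochondrial genes.

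Forms of phosphofructokinase had unlike orders of the libraries. Pfkl, the liver form of phosphofructokinase, was at 4.31, 47.1 and 8.23 FPKM in WT and at 13.4, 15.1 and 9.98 FPKM in IL10-KO, so WT library 2 exceeded every IL10-KO library. Pfkp was 6.20 to 7.03 FPKM in WT, with no such peak in WT library 2. Tpi1, the triose phosphate isomerase, was at 78.3, 262 and 64.2 FPKM in WT and at 210, 234 and 129 FPKM in IL10-KO, and as for Ldha its highest library was WT library 2. Gapdh, often used as a reference gene, was at 70.9 FPKM in WT library 2 and lay between 3.45 and 6.80 FPKM in the other 5 libraries. It shared 25.1% of its 50-base stretches with 223 other genes, so its level is uncertain. Pfkl, Tpi1, Gapdh and Ldhb were named after their values were seen.

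Of 16 transporters of sugars and lactate, 10 were tested and 0 called by limma on the deposited scale. The gene with the smallest p was Slc16a3, which encodes MCT4, the lactate exporter of glycolytic cells. It was at 1.14, 2.02 and 1.64 FPKM in WT and at 15.0, 26.0 and 8.57 FPKM in IL10-KO, a 10.3-fold difference of means with no overlap. On the log2 scale the difference was 2.64 (SE 0.39, adjusted p = 0.0752 in limma), where the largest among members was 2.17. Slc16a3 was called with TPM (adjusted p = 0.026) and with a weight per library (0.0219). Slc16a1, which encodes MCT1, gave -0.95 (adjusted p = 0.791), and 0.23 without WT library 2, where it stood at 314 FPKM. The Slc16a3 to Slc16a1 ratio was 0.0324, 0.00643 and 0.0866 in WT and 0.389, 0.840 and 0.358 in IL10-KO. The insulin-responsive transporter gene Slc2a4 had a log2 fold change of -1.54 and the sodium-coupled Slc5a1 one of 0.89 (adjusted p = 0.507 and 0.521). Slc2a2 had no read in WT and 1 library with any read in IL10-KO, and Slc5a2 had none in either group.

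Genes at the entry of pyruvate into mitochondria gave 14 tested genes, and limma called 0. At an unadjusted p under 0.05, 1 was higher, against 6.14% of all genes tested. That gene was Pdk1, a HIF-responsive kinase that switches off pyruvate dehydrogenase, with 3.74, 6.15 and 2.92 FPKM in WT and 9.63, 10.01 and 6.17 FPKM in IL10-KO. Its log2 fold change was 0.89 (SE 0.31, adjusted p = 0.436), and its lowest IL10-KO library lay just above WT library 2. Pdha1, a subunit of the dehydrogenase, Mpc2, a subunit of the pyruvate carrier, and Pdk2, another such kinase, had log2 fold changes of 0.48, 0.46 and -0.94 (adjusted p = 0.578, 0.632 and 0.592).

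Within the pathway lists, the smallest p values next to that of Slc16a3 were those of a HIF regulator and a HIF target. Egln3, the prolyl hydroxylase PHD3 that marks HIF alpha subunits for breakdown and is itself a HIF target, was at 9.45, 6.57 and 10.2 FPKM in WT and at 55.3, 95.2 and 36.7 FPKM in IL10-KO. All IL10-KO libraries were well above all WT libraries, and WT library 2 was the lowest of all. Its log2 fold change was 2.62 (SE 0.39, adjusted p = 0.0752 in limma). Of the 9 regulators 7 were tested and Egln3 alone had an unadjusted p under 0.05, where 6.14% of all genes tested were higher. Epas1 (HIF-2 alpha), Egln1 and Hif1an had log2 fold changes of 0.77, 0.20 and 0.22 (adjusted p = 0.597, 0.843 and 0.844). The Egln3 to Egln1 ratio was 0.683, 0.366 and 0.499 in WT and 2.80, 4.13 and 2.12 in IL10-KO.

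Of 18 HIF targets outside glycolysis 16 were tested, and limma called 0. At an unadjusted p under 0.05, 6 were higher, against 6.14% of all genes tested, and 0 lower, against 4.03%. Separate by label with IL10-KO above WT were 6, against 8.84% of all genes tested. The median over the 18 was 0.73, against 0.0043 over all rows with a read. Over the 16 tested it was 0.97, against 0.0388 over all genes tested. Ddit4, an inhibitor of mTORC1, was at 9.04, 7.94 and 9.13 FPKM in WT and at 32.3, 86.4 and 57.9 FPKM in IL10-KO (log2 fold change 2.52, SE 0.38, adjusted p = 0.0752). The log2 differences of Ankrd37, of Bnip3, a mitophagy receptor, and of Ero1l, an oxidase of the endoplasmic reticulum, were 1.27, 1.79 and 1.80 (adjusted p = 0.192, 0.240 and 0.289 in limma). Bnip3 shared 47.2% of its 50-base stretches with other genes. The hormone gene Adm and the growth factor gene Vegfa, the other 2 of the 6, had log2 fold changes of 2.30 and 1.00. Car9, Higd1a and Mxi1 overlapped between the groups. In Car9, as in Slc2a1, WT library 2 lay above 2 of the 3 IL10-KO libraries, and in Higd1a and Mxi1, as in Ldha, it was the highest of all 6.

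**Figure D4:**
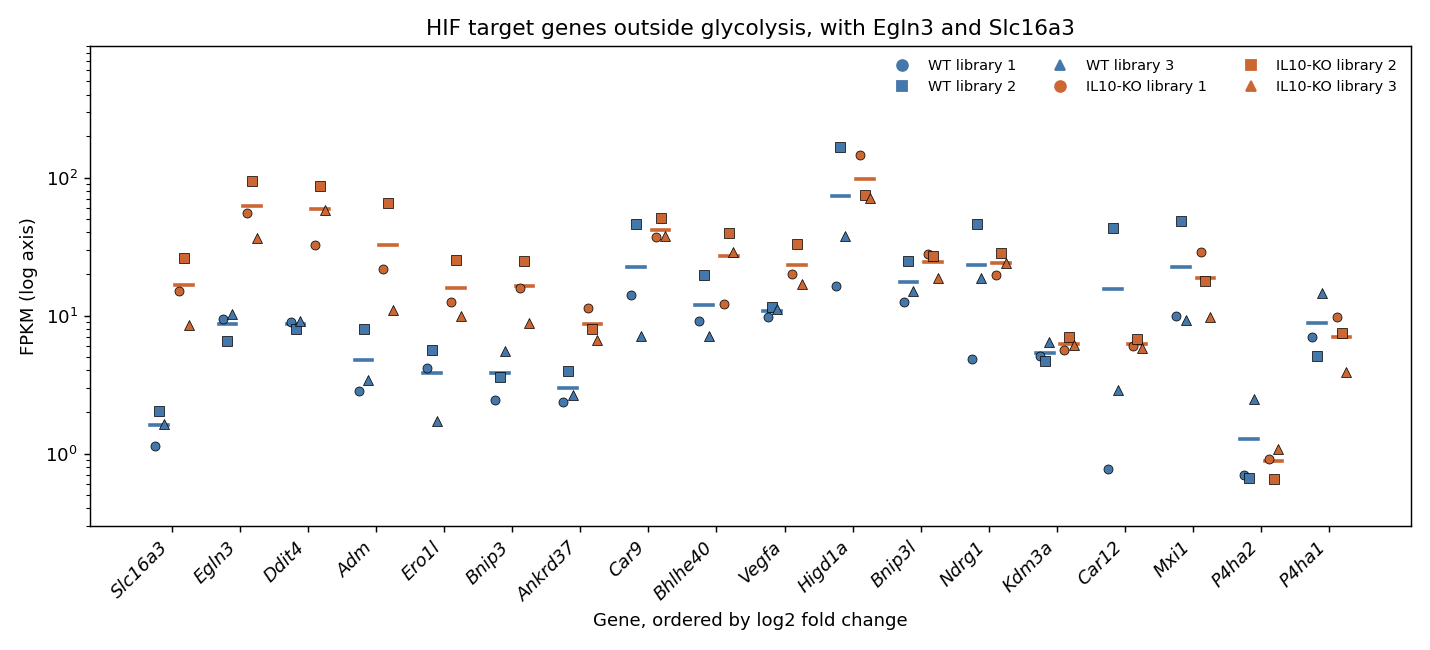
FPKM (log axis) in each library of the 16 tested HIF targets outside glycolysis, with Egln3 and Slc16a3, ordered by log2 fold change; bars are group means (n = 3). Slc16a3, Egln3 and Ddit4 lie at 1.14 to 10.2 FPKM in WT and between 8.57 and 95.2 FPKM in IL10-KO, whereas Higd1a, Ndrg1, Car12 and Mxi1 peak in WT library 2.

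Side branches of the pathway gave no call either. Of 15 genes of gluconeogenesis and glycogen 10 were tested, and limma called 0. At an unadjusted p under 0.05, 2 were lower, against 4.03% of all genes tested. These were Pck1, the first committed enzyme of gluconeogenesis, at 11.9, 87.8 and 10.7 FPKM in WT and 6.68, 2.82 and 3.85 FPKM in IL10-KO (log2 fold change -2.19, SE 0.79, adjusted p = 0.452), and Pygm, the muscle glycogen phosphorylase, with one of -1.31 (adjusted p = 0.444). Pygm, with an IL10-KO mean of 0.617 FPKM, passed the level filter only through the WT libraries. The Pck1 value was -1.24 without WT library 2. Fbp2, a fructose bisphosphatase, had a log2 fold change of 0.95 and Pygb, the brain glycogen phosphorylase, one of -0.50 (adjusted p = 0.524 and 0.596). Gys2 had no read in WT and reads in 1 IL10-KO library, and G6pc, Tktl1 and Tktl2 were listed at 0 throughout. Of 10 pentose phosphate genes 8 were tested, and 0 were called by limma. Only H6pd, the dehydrogenase of the endoplasmic reticulum, had an unadjusted p under 0.05, where 6.14% of all genes tested were higher. H6pd stood at 3.66 ± 0.739 FPKM in WT and 8.18 ± 1.39 in IL10-KO (SD, n = 3; log2 fold change 0.98, adjusted p = 0.243). Pgd, Tkt and Rpe had log2 fold changes of 1.10, 0.62 and 0.30 (adjusted p = 0.532, 0.543 and 0.777).

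Marker levels of other cell types varied from library to library. The summed level of 13 epithelial markers was 6656, 46260 and 3086 FPKM across the WT libraries and 20660, 14190 and 10630 FPKM across the IL10-KO ones. WT library 2 was thus the highest for epithelium and the highest WT library for 9 of the 10 members. Within IL10-KO, library 1 was the highest for epithelium, while library 2 was the highest for 8 members. The sum of 12 smooth muscle markers ran from 1458 to 9966 FPKM in WT, highest in library 3, and from 199.6 to 1131 FPKM in IL10-KO, lowest in library 2. For 10 of the 11 tested among these 12, every IL10-KO library lay below every WT library, against 7.89% of all genes tested. The sum of 14 neuron and glia markers ran from 45.05 to 326 FPKM in WT, and the IL10-KO libraries spanned 13.7 to 50.8.

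The summed level of 16 neutrophil markers was 3.57 to 131 FPKM in WT and 989.5 to 1901 FPKM in IL10-KO. Of the 12 tested, limma called S100a8 and S100a9 higher (adjusted p = 0.00226 and 0.000486), the only calls in any list fitted here. For 11 of the 12 tested every IL10-KO library lay above every WT library, against 8.84% of all genes tested. Any marker without a read in WT, as S100a9, could pass the level filter only through the IL10-KO libraries. The order of such markers was thus largely set by the filter, and the count is not like that share. Among all 16, the order did not hold for Mmp9, Camp, Elane, Mpo and Itgam. S100a9, Cxcr2, Mmp8, Ngp and Retnlg had no read in WT and 61 or more in IL10-KO. Elane and Mpo, also without a read in WT, had 5 and 1 in IL10-KO, and Camp had 5 in WT and 4 in IL10-KO. The 14 macrophage and monocyte markers summed to 186 to 527 FPKM in WT and 363 to 727 FPKM in IL10-KO, and the 10 markers of dividing cells to 39.6 to 133 and 81.6 to 127 FPKM, both with overlap. The 8 fibroblast markers summed to 76.7 to 257 FPKM in WT and 78.8 to 118 in IL10-KO, also with overlap, and the skeletal muscle and red blood cell sums stayed at or under 35.3 FPKM in every library. The summed neutrophil and smooth muscle levels were thus separate by label, the first higher in IL10-KO, as Pfkfb3, Hk2, Pgk1 and Hif1a were, and the second lower. Unlike most members, the neutrophil sum was lowest within WT in library 2 (3.57 FPKM). The epithelial sum overlapped, but every IL10-KO library lay above WT libraries 1 and 3, as for all 10 members. Of the 13 epithelial markers 11 had a log2 fold change above 0, against 54.1% of all genes tested, with a median of 0.81. The part of epithelial, muscle, neutrophil or other cell shares in the members' differences was not tested.

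**Figure D5:**
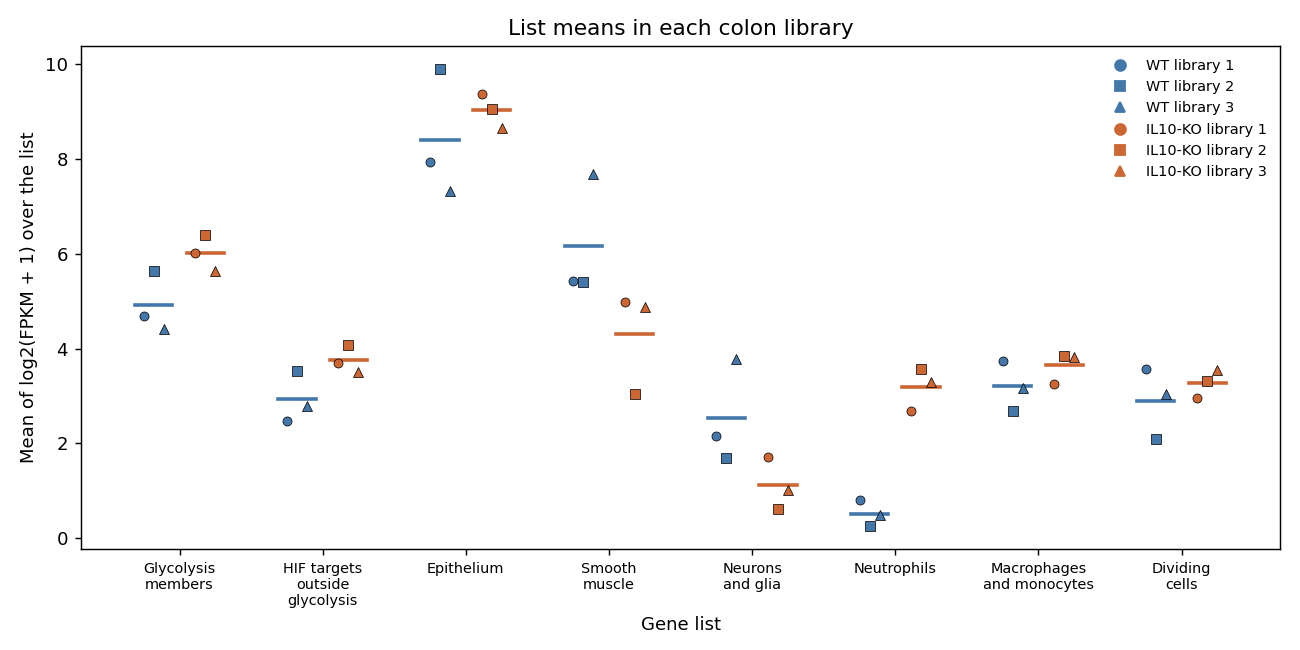
Mean of log2(FPKM + 1) over each gene list in each library; symbols stand for library numbers and bars for group means (n = 3). WT library 2 has the highest epithelial mean (9.90), WT library 3 the highest smooth muscle mean (7.68), and the neutrophil means are 0.25 to 0.81 in WT and 2.69 to 3.56 in IL10-KO.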

How the data were processed

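Colon RNA of 3 WT and 3 IL10-KO libraries was deposited as 1 table of FPKM values, with library scaling by the authors. Bowtie 0.12.2 and the builds hg38 and mm8 appear, without roles, in the submitters' processing notes. Which counter and strand setting were used, and how multiply mapping reads were treated, is not given in the sources used here. Among deposited gene identifiers found in GENCODE M21 (GRCm38), 98.2% had identical coordinates, as had every member row, so coordinates are given as GRCm38. Multiplying FPKM by gene length gave whole numbers of reads, after 1 scale factor for each library, for 100% of values above 0 (tolerance 0.01), and the depths quoted are sums of these.

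The sample titles gave the groups and library numbers. Log2(FPKM + 1) of the 12668 genes with a mean of at least 1 FPKM was fitted with limma 3.58.1 (eBayes with trend) in R 4.3.3, adjusted by Benjamini-Hochberg, threshold 0.05, without a replicate block. The fit was tested on simulated data. Pairs of libraries differed by a chi-square per gene of 67.4 or more, so none was the same library sequenced again. This does not show whether any libraries came from the same mouse. Sequence sharing was counted as exact 50-base matches between GENCODE M21 transcripts on both strands. Members and lists were chosen with earlier results of these data known. The genes named are all members, up to 4 per pathway list with the smallest p, listed genes without reads in 1 group, and others said to be chosen after their values were seen, as were Pfkl, Tpi1, Gapdh, Eno2, Eno3, Ldhb, Adm, Vegfa, Car9, Higd1a, Mxi1, Ndrg1 and Car12. Figures used matplotlib 3.10.9 in Python 3.11.15. Alternatives were other pseudocounts, filters, scalings and eBayes settings, library weights, a replicate block, left-out libraries and, added later, voom on the recovered reads.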

Additional observations from a re-analysis of the deposited data

How the results depend on the processing

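Each tested member had a positive log2 fold change under every alternative that could be fitted (20 each, and 19 for Pfkfb3, which a filter of at least 5 FPKM removed). The members' median stayed within 0.866 and 1.51 over the left-out libraries. It was 1.29 with TPM and 0.97 with libraries rescaled without mitochondrial genes, where the median of all genes tested was 0.145 and -0.132. No member was called except with a weight per library, where 5 were, namely Slc2a1, Hk2, Pfkfb3, Pgk1 and Eno1 (adjusted p = 0.0495, 0.0442, 0.0491, 0.0360 and 0.0491 in limma). With the weights Pfkp, Slc16a3, Egln3, Ddit4, Ankrd37, Bnip3, H6pd and Pgd were also called, and with TPM Slc16a3. The weights came from the data being tested, at 2.76 for WT library 1 and 0.198 for WT library 2. The count of all genes called, 23, became 9 with a pseudocount of 0.01, 4 with no filter, 46 with TPM (44 higher, 2 lower), 331 with weights (237 higher, 94 lower) and 2 with voom on the recovered reads, an alternative chosen after seeing the data. Without 1 library it ran from 4 to 29. The causes were not tested. With a replicate block 7 genes and 0 members were called. Of the 10 members 6 then had an unadjusted p under 0.05, against 6.46% of all genes tested that were higher. Deviations of same-numbered libraries correlated at -0.149, 0.180 and 0.396. WT libraries 2 and 3 correlated best with their own number and WT library 1 did not, so these values do not settle pairing. The titles do not state pairs, so the numbers were not taken as pairs. With 3 libraries per group, depth limits only the low members: 287 WT reads lie behind Pfkfb3 and 21 reads in all behind the second Aldoa row.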
